A study of Aspergillus nidulans with 6 samples.

Results

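The genes described here are 117 of the 1375 genes listed in the RNA-Seq table of the Aspergillus nidulans strain celAΔ and its control. The table gives them no function: 94 are annotated as a conserved hypothetical protein and 23 as a hypothetical protein. They were chosen by their RPKM in these same libraries, RPKM being a read number corrected for gene length and library depth. A gene entered when its mean was higher in the 3 celAΔ libraries than in the 3 control libraries. Control 3 also had to lie little or no way from the other control libraries towards celAΔ. This was read from a position on the log2(RPKM + 1) scale. The position is 1 where control 3 has the mean level of celAΔ and 0 where it has that of controls 1 and 2. It had to be at most 0.3, with no lower limit. Of 605 listed uncharacterised genes, 322 were higher in celAΔ and 283 were lower. Genes numbered ANIA_07804 to ANIA_07825 and ANIA_07909 to ANIA_07914, which cover the sterigmatocystin and F9775 clusters, and ANIA_08443 and ANIA_11083, which flank celA, were left out. This left 306 genes, of which 189 had a position above the limit.

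In celAΔ the locus ANIA_08444 was replaced by the marker argB (ANIA_04409), a gene of arginine synthesis. The control is the recipient strain SAA.111, which carries veA1, biA1, riboB2, pyroA4 and wA3 and in which argB is deleted (ΔargB::trpC). All libraries came from mycelium grown for 3 days at 37 °C in liquid minimal medium with 0.4% glucose and 10 mM ammonium tartrate, and the labels number 3 biological replicates per strain. The paper's methods also give 3 days, while its results name a later time as that of the RNA-Seq. The celAΔ strain is a single transformant, and since the marker is present only together with the deletion, their effects cannot be told apart.

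A. nidulans is a soil mould that grows as branching hyphae and serves as a model for filamentous fungi, and celA encodes a putative glucan synthase of the cell wall. A hypothetical protein is a gene model predicted from the genome sequence without a known product, and it is called conserved where similar predicted proteins exist in other species. In such fungi the genes for 1 secondary metabolite often lie side by side, with a synthase that builds the backbone, enzymes that modify it, a transporter and sometimes a transcription factor. The place of an uncharacterised gene next to such genes is therefore given with its level.

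The libraries held 4638936, 5205011 and 4176645 mapped reads in celAΔ and 3706233, 3300251 and 3607060 in the control. The targeted gene celA had 3.54, 3.64 and 4.29 RPKM in celAΔ, against 26.6, 29.7 and 15.3 RPKM in the control. These values rest on 33, 38 and 36 unique reads in celAΔ, against 198, 197 and 111 in the control, so that reads of the locus described as replaced were fewer but not absent. The paper reports this low level too, regards it as negligible and names remaining heterokaryons as its probable source. It shows the replacement by Southern blot and diagnostic PCR. GEO's sample titles call celA downregulated in this strain, while the sample descriptions name a deletion. The name celAΔ is used here as the study's name for the strain. The marker argB had 1471, 2467 and 2331 RPKM in celAΔ, against 0.904, 1.02 and 0.464 RPKM in the control. Of 12 conidiation markers, for cells that a mycelium culture can also hold, 4 are listed, and their summed level was 1623, 2517 and 3389 RPKM in celAΔ, against 41.0, 40.7 and 1247 RPKM in the control. These 4 are the conidiation genes that the paper names as higher in celAΔ from these same data, so their rise was known beforehand. The markers brlA, abaA, wetA, vosA, wA, yA, rodA and dewA are not listed. Control 3 stood apart from the other control libraries on the 4 listed markers. In bulk RNA, fewer cells of a type and less RNA per cell cannot be told apart.

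The 117 genes took 1.18, 1.24 and 1.29% of the mapped reads in celAΔ and 0.291, 0.291 and 0.264% in the control. Their summed level was 15182, 15480 and 16296 RPKM in celAΔ, against 4196, 4302 and 3561 RPKM in the control. Most of the reads came from few genes: the 10 with the most reads held 63.6% of the reads of all 117 in celAΔ. The median of the mean level was 15.1 RPKM in celAΔ and 2.89 RPKM in the control. The 189 uncharacterised genes with a position above the limit had medians of 82.5 RPKM in celAΔ and 21.4 RPKM in the control, and all listed genes had medians of 19.2 RPKM in celAΔ and 23.7 RPKM in the control. By mean level in celAΔ, 3 genes were at 1000 RPKM or above, 20 from 100 to 1000 RPKM, 49 from 10 to 100 RPKM, 38 from 1 to 10 RPKM and 7 under 1 RPKM. The coding length had a median of 981 bases, against 1023 bases in the 189 genes and 1257 bases in all listed genes.

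**Figure D1:**
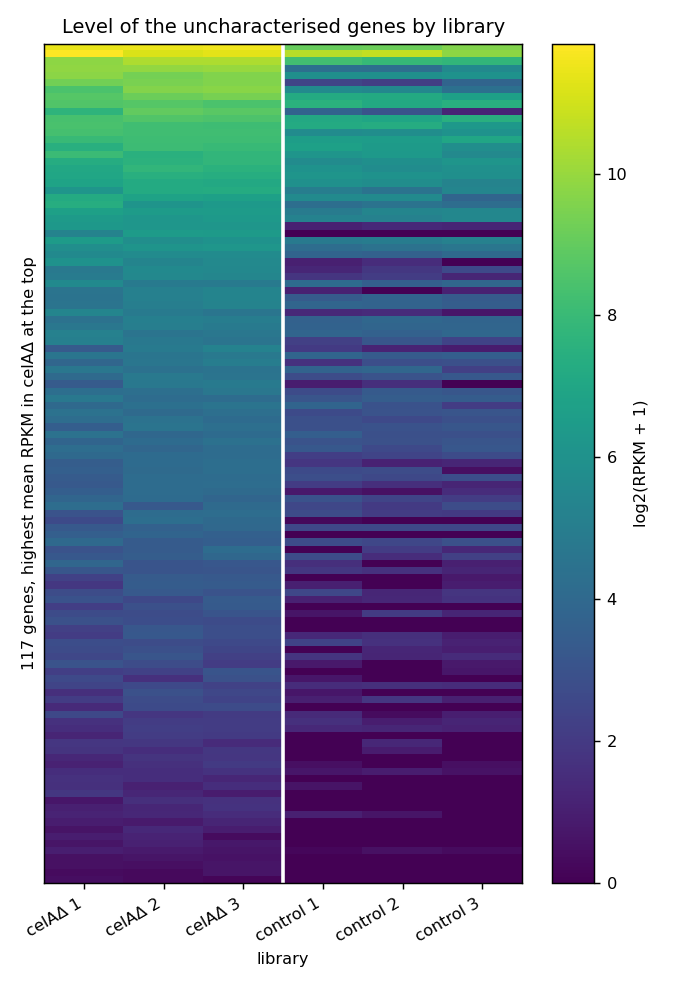
Level of each of the 117 genes (rows, ordered by mean RPKM in celAΔ) in the 6 libraries (columns) as log2(RPKM + 1). The 3 celAΔ columns are brighter than the 3 control columns in all rows, and the lower rows are dark in all control columns.

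Genes at the limit of the choice differ little across it. Just inside were ANIA_02974, ANIA_07907 and ANIA_10385, with positions of 0.298, 0.296 and 0.290. Just outside were ANIA_07798, ANIA_01185 and ANIA_02242, with 0.304, 0.305 and 0.308. ANIA_02974 had 6.91, 4.82 and 9.68 RPKM in celAΔ, against 1.13, 1.48 and 2.32 RPKM in the control. ANIA_02242, left out, had 19.7, 43.1 and 47.3 RPKM in celAΔ, against 2.74, 4.22 and 7.38 RPKM in the control. In both genes control 3 was the highest control library and every celAΔ library was above it.

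**Figure D2:**
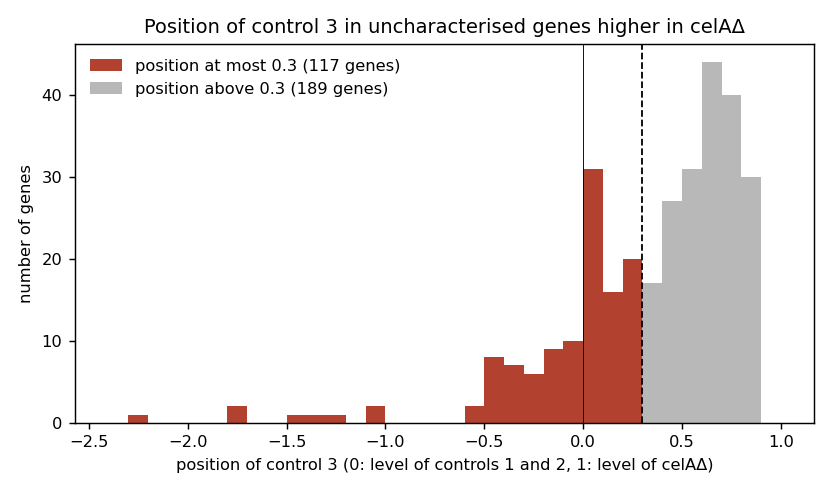
Number of uncharacterised genes higher in celAΔ (vertical axis) by the position of control 3 (horizontal axis, 0 at the level of controls 1 and 2 and 1 at that of celAΔ). The 117 chosen genes lie at or left of the dashed limit of 0.3 and reach down to -2.30, and the 189 others lie to its right with no gap at the limit.

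The highest level in celAΔ was that of ANIA_02488, a short gene of 522 coding bases on chromosome VII. It had 2768, 2834 and 3071 RPKM in celAΔ, against 538, 578 and 759 RPKM in the control, a log2 FC of 2.21 ± 0.34 (standard error). log2 FC is here the log2 of celAΔ over control fitted by edgeR to the unique reads. The libraries of each strain were close and the groups lay well apart, with control 3 the highest control library. ANIA_04474, on chromosome III, reached a like level with a smaller difference, with 3631, 2296 and 2595 RPKM in celAΔ, against 1498, 1733 and 895 RPKM in the control (log2 FC 1.05 ± 0.40). It was high in every library, and the lowest celAΔ library was only a little above the highest control library. Its log2 FC was 0.83 without celAΔ 1 and 0.81 without control 3, and it did not pass the edgeR test (adjusted p under 0.05 and log2 FC over 1) with any library left out, with the replicate block or with p-values adjusted over the whole genome. ANIA_06298, on chromosome I, had 872, 653 and 775 RPKM in celAΔ, against 58.8, 58.3 and 64.1 RPKM in the control (log2 FC 3.67 ± 0.34). Its control libraries were nearly equal, so that no library of either strain stood out.

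Larger ratios were found in ANIA_02407 and ANIA_08612. ANIA_02407, a gene of 2028 coding bases on chromosome VII, had 640.0, 707 and 765 RPKM in celAΔ, against 4.39, 3.44 and 12.9 RPKM in the control, a ratio of means of 102 and a log2 FC of 6.67 ± 0.68 (7.48 without control 3). ANIA_08612, on chromosome III, had 919, 959 and 1031 RPKM in celAΔ, against 19.6, 18.96 and 48.6 RPKM in the control, a ratio of 33.4 and a log2 FC of 5.06 (5.65 without control 3). In both genes the celAΔ libraries were even, while control 3 was at more than 2 times the higher of the other control libraries. That was so in 3 of the chosen genes with reads in control 1 or 2, which met the limit because their level in celAΔ was higher still. Control 3 was at 0.5 or less of the lower of controls 1 and 2 in 10 genes with reads in both.

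ANIA_02557, on chromosome VII, had the most even libraries among the genes of large ratio. It had 78.4, 72.4 and 73.6 RPKM in celAΔ, against 1.13, 1.58 and 1.30 RPKM in the control, a ratio of 56.0 and a log2 FC of 5.79 ± 0.34. ANIA_06419, on chromosome I, had a like ratio of 54.4 with wide spread in each strain: 206, 502 and 440.1 RPKM in celAΔ, against 12.6, 7.21 and 1.32 RPKM in the control (log2 FC 5.76 ± 0.87, and 6.49 without control 1). Here celAΔ 1 was the lowest celAΔ library and control 3 the lowest control library. The next locus to ANIA_06419, the putative MFS transporter ANIA_06418, had lower levels in celAΔ, with 9.72, 11.7 and 9.92 RPKM, against 25.5, 26.2 and 17.7 RPKM in the control.

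Among the genes with over 3 unique reads over the control libraries, 82 in all, the ratio of means ran from 2.01 to 102 with a median of 3.07. It was under 3 in 38 genes, from 3 to 5 in 23, from 5 to 10 in 6 and above 10 in 15. The lower end is set by the table, which holds only genes that the authors had selected for at least a 2-fold difference between the means.

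**Figure D3:**
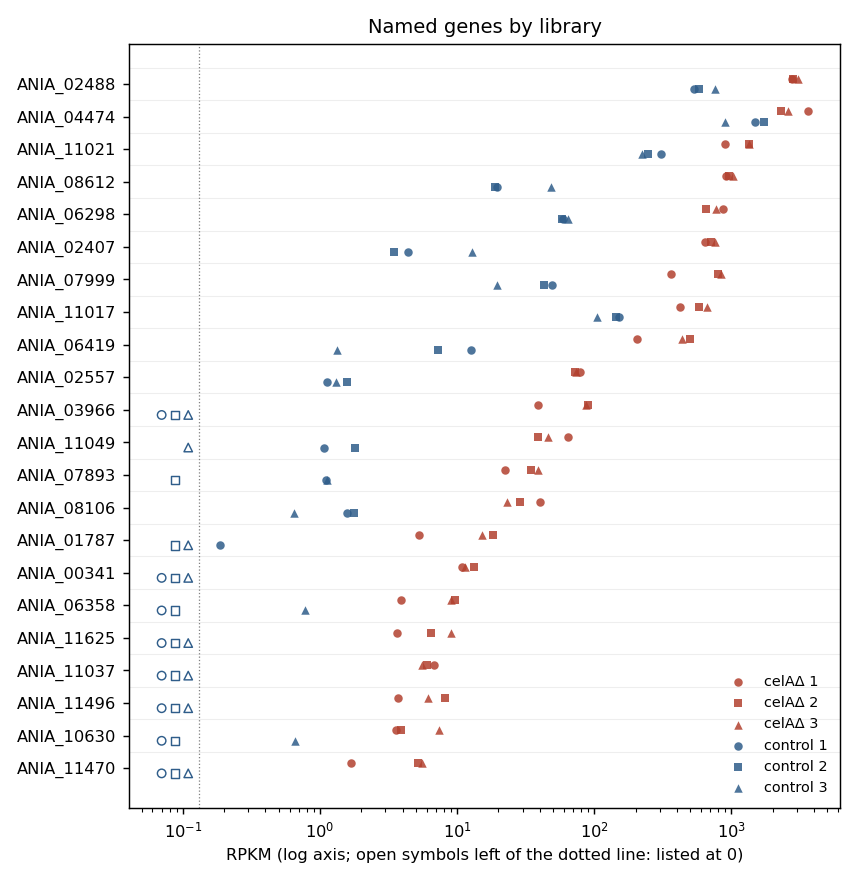
RPKM of 22 genes (rows, highest mean in celAΔ at the top) in each library on a log axis, with celAΔ in red above control in blue, and open symbols for libraries listed at 0. The celAΔ and control symbols of a gene do not overlap, and control 3 (blue triangle) lies right of the other control libraries in ANIA_08612 and ANIA_02407 but left of them in ANIA_06419 and ANIA_07999.

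A group of 20 genes was listed at 0 in every control library. These were 17.1% of the 117, against 0 of the 189 genes with a position above the limit, which no gene at 0 in control 3 can reach, and 29 of the 1375 listed genes. Their mean level in celAΔ ran from 0.237 to 71.9 RPKM with a median of 1.66 RPKM, resting on 4 to 683 unique reads over the celAΔ libraries with a median of 15. ANIA_03966, on chromosome II, stood apart from the rest of this group. It had 38.6, 90.2 and 86.9 RPKM in celAΔ, from 121, 317 and 245 unique reads, and no read in the control. Set against 3 reads in each control library, as a count of 0 allows, it was at least 57.1-fold higher in celAΔ. ANIA_00341, on chromosome VIII, had 10.8, 13.2 and 11.5 RPKM in celAΔ and was at least 6.67-fold higher, with no celAΔ library apart from the others.

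After ANIA_03966 the most reads of this group were those of ANIA_11037, with 42, 42 and 31 unique reads in celAΔ, described further on with its neighbours. Most of the others rested on fewer reads. ANIA_11625, with 3.64, 6.49 and 9.09 RPKM in celAΔ, and ANIA_11470, with 1.67, 5.21 and 5.57 RPKM in celAΔ, were at least 1.79-fold and at least 1.26-fold higher. For ANIA_11496, with 117 coding bases the shortest of all, 2, 5 and 3 reads gave 3.68, 8.21 and 6.14 RPKM in celAΔ. Set against 3 reads in each control library its bound was 0.827-fold, so this bound does not show a higher level. For 18 of the 20 genes, 3 reads in control 3 would by themselves have moved the position above the limit, and this held for 31 of the 117. In these genes a higher level in control 3 than in controls 1 and 2 was not detectable at this depth.

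A further 13 genes had 1 to 3 unique reads over the control libraries. ANIA_01787, on chromosome VII, had 35, 136 and 92 reads in celAΔ, against 1, 0 and 0 reads in the control, a ratio of reads per mapped read of 199 (exact 95% interval 35.4 to 7893). ANIA_06358 had 3.91, 9.65 and 9.02 RPKM in celAΔ, against 0, 0 and 0.773 RPKM in the control, with a ratio of reads of 28.8 (exact 95% interval 7.69 to 242). ANIA_10630 had 3.59, 3.89 and 7.41 RPKM in celAΔ, against 0, 0 and 0.660 RPKM in the control, with a ratio of 21.6 (exact 95% interval 5.70 to 182). These intervals cover counting error only. In the last 2 genes the only control reads were in control 3.

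The edgeR test, with adjusted p under 0.05 and log2 FC over 1, was passed by 113 of the 117 genes. Since the genes were chosen by the same contrast, nothing is read from this count, beside which 41.1% of all listed genes passed as higher in celAΔ. The 3 celAΔ values were above the 3 control values in all 117 genes, beside 46.7% of all listed genes, and this held for all 642 listed genes with a higher mean in celAΔ. Without control 3, 103 of the 117 genes passed, beside 45.4% of all listed genes, and 54 passed when p-values were adjusted over the whole genome, beside 12.5%. The median log2 FC was 2.06 over the 115 genes with unique reads, against 1.98 in the 189 genes and -1.04 in all listed genes. A gene without a control read has only a lower bound, and none of the 189 genes is such a gene. With these genes at their bound, chosen after seeing the data, the median over 113 chosen genes was 1.61. This value is itself a lower bound, so it cannot be ranked against the median of the 189. Without control 3 the median was 2.07 in the chosen genes, while in the 189 genes, which were defined by a high control 3, it was 2.90.

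Of the 4 genes that did not pass, ANIA_08207 and ANIA_04370 had no uniquely mapped read in any library. Their RPKM rests on reads shared with other genes and is uncertain. ANIA_04370 was listed with 7.16, 17.3 and 17.5 RPKM in celAΔ, against 5.78, 3.25 and 2.97 RPKM in the control. The remaining 2 genes were near the 2-fold limit or at few reads: ANIA_05016 had a log2 FC of 0.99 ± 0.39, and ANIA_05896 had 3, 4 and 4 reads in celAΔ, against 2, 1 and 0 reads in the control.

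The celAΔ libraries differed among themselves in a repeated way. In 70 of the 117 genes (59.8%) celAΔ 1 was the lowest celAΔ library, and this was so in 53.0% of the other 525 listed genes that were higher in celAΔ. It was under 0.5 of the mean of celAΔ 2 and 3 in 18 genes (15.4%, against 12.0% of the 525) and over 1.5 times that mean in 12 genes (10.3%, against 5.33%). The median coefficient of variation in celAΔ was 24.7%, against 18.1% in the 525. Among the 117 it was 32.7% in the 45 genes under 10 RPKM and 22.5% in the 72 genes at 10 RPKM or above. Both values were above that of the 525, which were not split by level.

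ANIA_09332, on chromosome VIII, had the lowest share in celAΔ 1, with 9.06, 28.0 and 36.8 RPKM in celAΔ, against 3.04, 1.24 and 0.853 RPKM in the control. ANIA_07998 went the other way, with 165, 69.1 and 79.6 RPKM in celAΔ, against 18.2, 21.9 and 17.9 RPKM in the control. In ANIA_09332 celAΔ 1 was well below the other celAΔ libraries, and in ANIA_07998 it was well above them. The summed level of the 4 listed conidiation markers was lowest in celAΔ 1 too, most of it from ANIA_05015, while the marker flbD was highest in celAΔ 1, with 234, 183 and 212 RPKM in celAΔ. Their part in these values was not tested.

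**Figure D4:**
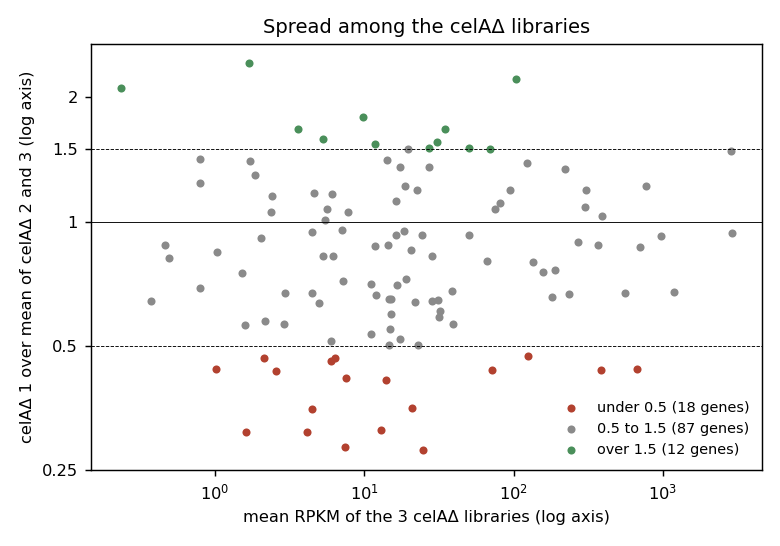
Level in celAΔ 1 over the mean of celAΔ 2 and 3 (vertical log axis) against mean RPKM in celAΔ (horizontal log axis), a point for each of the 117 genes. The 18 genes under 0.5 and the 12 genes over 1.5 are spread over most of the range of levels.

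Of the 97 genes with reads in the control, control 3 was below both other control libraries in 31, above both in 32 and between them in 34. The choice had left out genes with control 3 far towards celAΔ, so nothing is read from this split. A position below 0 was found in 50 of the 117 genes. The lowest 5 positions ran from -2.30 to -1.38 and include that of ANIA_05896, which had few reads, and that of ANIA_01241, described further on with its neighbours. ANIA_10403, with a position of -2.30, had 25.1, 20.5 and 21.5 RPKM in celAΔ, against 12.6, 14.1 and 3.70 RPKM in the control. ANIA_08370, with -1.48, had 151, 113 and 104 RPKM in celAΔ, against 49.8, 50.1 and 13.0 RPKM in the control. In both, controls 1 and 2 were close together and control 3 was far below them, on the side away from celAΔ. ANIA_05430, with -1.38, had 15.3, 19.5 and 22.8 RPKM in celAΔ, against 13.1, 6.87 and 3.35 RPKM in the control, where each control library had another level and control 1 was near celAΔ 1. ANIA_05430 had a log2 FC of 1.30 (1.91 without control 1) and passed the edgeR test with control 1 left out but with no other library left out, and ANIA_10403 passed with control 2 left out but with no other.

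All 117 genes were found in the RefSeq annotation of assembly ASM1142v1, which gives their order along the chromosomes. They lie on all 8 chromosomes, from 12 genes on chromosomes I, III and VIII to 19 on chromosome II. At least 1 adjacent locus was listed as higher in celAΔ for 36 of them (30.8%), against 26.5% of the 189 genes and 31.0% of all listed higher genes. An adjacent locus listed as lower was found for 8 (6.84%), against 8.99% of the 189 genes and 8.27% of all listed higher genes. The adjacent higher loci that were not chosen numbered 31, of which 22 carry another annotation than the 2 used here. The library kit keeps the strand, but whether strand was used in counting is not given in the sources used here, so reads of neighbours whose transcripts overlap cannot be told apart.

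The clearest run of chosen genes was that of ANIA_08106, ANIA_11037 and ANIA_11049, adjacent on chromosome II. ANIA_08106 had 40.3, 28.8 and 23.0 RPKM in celAΔ, against 1.58, 1.77 and 0.649 RPKM in the control. ANIA_11037 had 6.75, 6.02 and 5.53 RPKM in celAΔ and no read in the control, at least 9.62-fold higher in celAΔ. ANIA_11049 had 64.3, 39.2 and 46.2 RPKM in celAΔ, against 1.07, 1.81 and 0 RPKM in the control. All 3 genes were highest in celAΔ 1, unlike most of the chosen genes, and were near 0 in every control library. The 2 nearest loci on one side and the 3 nearest on the other are not listed.

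ANIA_07998 and ANIA_07999, adjacent on chromosome II, were both higher in celAΔ but did not follow each other among its libraries. ANIA_07999 had 361, 798 and 842 RPKM in celAΔ, against 49.2, 43.1 and 19.4 RPKM in the control (log2 FC 4.16 ± 0.56). Its level was thus lowest in celAΔ 1, where that of ANIA_07998 was highest. Beyond ANIA_07998 lies ANIA_07997, annotated as an RNA polymerase III transcription factor subunit, which had 95.6, 82.1 and 77.2 RPKM in celAΔ, against 14.2, 11.2 and 22.8 RPKM in the control.

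ANIA_03887 and ANIA_03885, on chromosome II with a locus between them, lie next to ANIA_03884, annotated as a putative MFS multidrug transporter, a membrane protein family that exports small molecules. ANIA_03884 had 34.4, 92.0 and 100.2 RPKM in celAΔ, against 0, 0.549 and 0.837 RPKM in the control. ANIA_03887 had 2.76, 9.85 and 9.61 RPKM in celAΔ, against 1.05, 0 and 0.927 RPKM in the control. ANIA_03885 had 3.35, 8.50 and 6.08 RPKM in celAΔ, against 1.55, 1.99 and 0.908 RPKM in the control. All 3 genes were lowest in celAΔ 1, and the transporter was the most abundant of them in celAΔ.

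ANIA_01241, on chromosome VIII, lies between a putative nonribosomal peptide synthase, ANIA_01242, an enzyme type that joins amino acids without the ribosome, and an ABC multidrug transporter, ANIA_01240, an ATP-driven membrane pump. ANIA_01241 had 11.1, 15.9 and 18.2 RPKM in celAΔ, against 5.40, 5.64 and 0.397 RPKM in the control. The synthase had 5.57, 4.01 and 3.70 RPKM in celAΔ, against 2.12, 1.88 and 0.745 RPKM in the control. The transporter had 26.2, 36.4 and 38.4 RPKM in celAΔ, against 12.1, 7.42 and 3.89 RPKM in the control. Control 3 was the lowest library in all 3 genes, and no other locus within 6 places of ANIA_01241 is listed.

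ANIA_11017 and ANIA_11021, on chromosome IV, lie by their order among the loci ANIA_07804 to ANIA_07825 of the sterigmatocystin cluster and stayed among the chosen genes because they are numbered differently. RefSeq gives ANIA_11017 the symbol tpcL, the only symbol among the 117 genes that is not a locus name. ANIA_11017 had 420.2, 579 and 669 RPKM in celAΔ, against 151, 143 and 104 RPKM in the control. ANIA_11021 had 902, 1337 and 1336 RPKM in celAΔ, against 307, 245 and 222 RPKM in the control. Both were already well expressed in the control and lowest there in control 3, and ANIA_11013, next to ANIA_11017 and annotated as similar to VerB, had 742, 1199.5 and 1196 RPKM in celAΔ, against 169.9, 184 and 172 RPKM in the control. Of the 24 loci from ANIA_07804 to ANIA_07825, the table holds 21, each of them higher in celAΔ.

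A stretch of 17 loci on chromosome II, from ANIA_07893 to ANIA_07907, ends just before the F9775 genes that were left out. It holds 5 listed genes, all higher in celAΔ, and 4 of them were among the chosen genes. Its ends were set by chosen genes. ANIA_07893 had 22.4, 34.9 and 38.8 RPKM in celAΔ, against 1.10, 0 and 1.13 RPKM in the control. ANIA_07902 had 10.7, 17.2 and 15.9 RPKM in celAΔ, against 0.777, 0.436 and 1.80 RPKM in the control. ANIA_07907 had 71.9, 151 and 153 RPKM in celAΔ, against 30.9, 21.7 and 40.8 RPKM in the control. These genes were lowest in celAΔ 1, and ANIA_07907 was already expressed in the control. The other gene of the stretch beside ANIA_11584 is ANIA_07897, with a FAD binding domain, a fold of many redox enzymes, at 12.9, 12.5 and 15.4 RPKM in celAΔ, against 2.28, 2.56 and 3.75 RPKM in the control. The next locus after the stretch, ANIA_07908, annotated as an arabinoxylan arabinofuranohydrolase, was listed as lower in celAΔ, with 0.441, 0.393 and 0.245 RPKM in celAΔ, against 1.93, 3.72 and 1.70 RPKM in the control. Other stretches between chosen genes were mixed. From ANIA_08619 to ANIA_11625, on chromosome III, 4 of 5 listed genes were higher in celAΔ. From ANIA_02483 to ANIA_02488, on chromosome VII, 3 of 4 were.

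**Figure D5:**
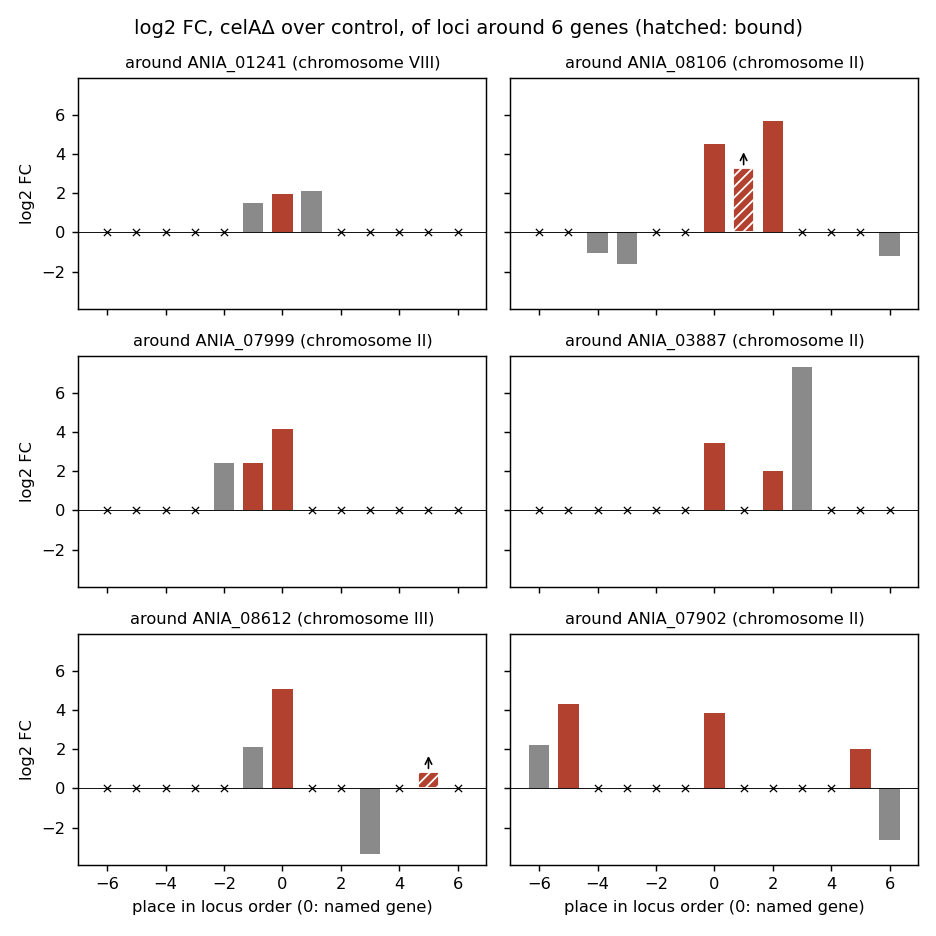
log2 FC of celAΔ over control (vertical axis) of listed loci up to 6 places either side of 6 genes (horizontal axis, 0 at the gene named above the panel), chosen genes in red, other listed genes in grey and unlisted loci as crosses. Hatched bars with arrows are lower bounds of genes without a control read, and the red run of 3 bars around ANIA_08106 has no listed neighbour directly beside it.

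ANIA_08612 lies next to ANIA_11093, annotated as a putative Zn(II)2Cys6 transcription factor, a class of fungal DNA-binding proteins that often control gene clusters. ANIA_11093 had 8.39, 11.3 and 11.5 RPKM in celAΔ, against 1.87, 3.07 and 2.37 RPKM in the control. It was weakly expressed beside ANIA_08612 and did not have its higher value in control 3. The next listed locus on the other side, 3 places away, was lower in celAΔ.

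Other chosen genes had direct neighbours in which control 3 was high. ANIA_11337, next to ANIA_02407, had 323, 791 and 1016 RPKM in celAΔ, against 7.34, 8.25 and 211 RPKM in the control. ANIA_05088, a calcium ion P-type ATPase next to ANIA_10630, had 111, 186 and 184 RPKM in celAΔ, against 2.77, 0.979 and 48.5 RPKM in the control. ANIA_05015, conidiation-specific protein 10 and a marker of conidia, lies next to ANIA_05016 and had 1128, 1731 and 2529 RPKM in celAΔ, against 2.17, 1.22 and 943 RPKM in the control. Of the 31 adjacent higher loci that were not chosen, 13 had a position above the limit, so that genes on both sides of the limit were neighbours. The share over all listed higher genes is not given here. Control 3 was also the highest control library in the chosen genes ANIA_02407 and ANIA_10630, but not in ANIA_05016.

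The remaining neighbouring pairs of chosen genes varied in level and in difference. ANIA_09021, with 3003 coding bases the longest of the 117, had 20.7, 33.0 and 31.3 RPKM in celAΔ, against 11.9, 14.2 and 13.0 RPKM in the control. ANIA_09022 beside it on chromosome VII had 21.3, 15.9 and 18.9 RPKM in celAΔ, against 5.32, 7.17 and 7.66 RPKM in the control. The lowest celAΔ library was celAΔ 1 in ANIA_09021 and celAΔ 2 in ANIA_09022. ANIA_08739, on chromosome III, had 9.55, 17.4 and 17.4 RPKM in celAΔ, against 6.25, 4.88 and 5.86 RPKM in the control. ANIA_08738 beside it had 5.91, 5.82 and 5.18 RPKM in celAΔ, against 4.28, 2.19 and 1.20 RPKM in the control. The groups of ANIA_08738 nearly met, and control 3 was its lowest library. Its log2 FC was 1.12, with 1.72 without control 1 and 0.78 without control 3, and it passed the edgeR test with control 1 left out but with no other library left out.

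ANIA_10655, on chromosome V, was the best expressed of these genes, with 319, 295 and 292 RPKM in celAΔ, against 51.4, 54.7 and 65.3 RPKM in the control. ANIA_05257 beside it had 3.35, 5.79 and 4.19 RPKM in celAΔ, against 1.05, 2.65 and 1.08 RPKM in the control. The 2 neighbours thus differed widely in level in both strains. ANIA_07592, on chromosome IV, had 15.5, 16.4 and 17.0 RPKM in celAΔ, against 3.64, 4.42 and 5.56 RPKM in the control. ANIA_10951, with the uncharacterised ANIA_10969 between them, had 13.3, 16.6 and 13.6 RPKM in celAΔ, against 6.79, 4.42 and 3.31 RPKM in the control. Control 3 was the highest control library in ANIA_07592 and the lowest in ANIA_10951.

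ANIA_09364 and ANIA_09366, on chromosome VIII, lie either side of ANIA_09365, annotated as the precursor of an endo-1,4-beta-xylanase, an enzyme that cleaves plant xylan. ANIA_09364 had 5.53, 6.49 and 4.46 RPKM in celAΔ, against 0, 1.41 and 0.969 RPKM in the control. ANIA_09366 had only 4, 6 and 1 reads in celAΔ and none in the control. The xylanase gene had 6.15, 2.60 and 4.67 RPKM in celAΔ, against 0.810, 0 and 1.67 RPKM in the control. All 3 genes were weakly expressed in celAΔ and near 0 in the control.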

How the data were processed

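RNA-Seq libraries of celAΔ and of the control SAA.111 (3 each) were sequenced by the authors as paired-end reads, trimmed, and mapped per library with CLC Genomics Workbench to the A. nidulans FGSC A4 transcriptome, with at most 3 hits per read. Per gene and library the authors deposited counts of uniquely mapped reads, without normalization, and RPKM, in which multiple hits are included. The deposited gene length is a coding length. The p-value column that the authors deposited holds their own test between the strains and was not used. The table lists only genes that passed that test and a 2-fold limit.

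Mapped totals were derived from reads, length and RPKM, and served as library sizes in edgeR 4.0.16 (R 4.3.3, quasi-likelihood test, no normalization factors, prior count 0.125, no covariates, two-sided, Benjamini-Hochberg adjustment over the 1375 listed genes). The script was tested on simulated data. Alternatives used TMM factors, DESeq2 1.42.0, limma 3.58.1 on log2(RPKM + 1) or log2(RPKM + 0.1), a filter, a replicate block and each library left out. Each standard error was derived from the log2 FC and the F statistic of the edgeR test. Medians of log2 FC leave out the 2 genes without unique reads. Ratios of few reads have exact Clopper-Pearson intervals.

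The members and lists were chosen with earlier results of these data known. Named genes are the 10 of largest ratio with control reads, the 8 of highest level, the 6 highest listed at 0 in the control, members next to or 1 locus from another, 3 either side of the limit, the 5 of lowest position, the shortest and the longest, with their neighbours. ANIA_07902, ANIA_09332, ANIA_11584, ANIA_08207, ANIA_04370 and ANIA_05016 were named after their values were seen. Of the listed genes, 1372 were matched to RefSeq loci of ASM1142v1. Promoter motifs and protein sequences were not analysed here. For biological replicates nothing further is stated, so the spread may be partly technical.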

Additional observations from a re-analysis of the deposited data

How the results depend on the processing

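The count of 113 genes past the threshold stayed between 99 and 115 under TMM factors, DESeq2, limma, the filter on low levels and the replicate block (103 genes, paired by replicate number), and between 100 and 104 with a library left out. With all libraries and with each one left out, 91 genes passed. Of the named genes, ANIA_04474, ANIA_08738, ANIA_05430 and ANIA_10403 lost the call with most libraries left out, ANIA_01241 without celAΔ 2 or celAΔ 3, ANIA_05257 without celAΔ 2 or control 1, ANIA_09021 without celAΔ 2, and ANIA_08370 and ANIA_09366 without celAΔ 1. The count fell to 54 with p-values adjusted over all loci of the assembly, an alternative chosen after seeing the data. The median log2 FC of 2.06 was 2.77 under DESeq2, whose size factors moved the median of all listed genes to -0.36, against -1.04. It was 1.48 under limma on log2(RPKM + 1), 1.87 among genes with a mean of at least 1 RPKM, 1.61 with genes without control reads at their bound (chosen after seeing the data), 2.08 with the replicate block, and between 1.92 and 2.17 with a library left out. No direction was reversed among the named genes. Deviations of libraries with the same replicate number gave correlations of 0.192, -0.189 and 0.161. Libraries with different numbers were not compared, so these values cannot show whether the numbers pair the samples. The choice of genes gave between 97 and 134 with another limit, 105 with log2(RPKM + 0.1), 103 with the filter and 114 to 118 with a library left out, of which between 105 and 116 were among the 117. It cannot be computed without control 3. Depth limits the genes with few control reads.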
